A study of Homo sapiens
Mus musculus and Mus musculus and Homo sapiens with 3 samples.

Results

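Neurogenic cells are neural cells caught on the way from dividing progenitor to neuron. Here they were single cells with at least 2 UMIs of NEUROG2, a proneural transcription factor, at least 1 UMI of DLL3, a Delta-family Notch ligand, and at most 1 UMI of NEFM, a neurofilament subunit of mature neurons. A UMI is a tag that marks 1 captured RNA molecule. Of 8683 cells that passed quality control, 915 were neurogenic cells: 276 in human replicate 1, 212 in human replicate 2, 212 in mouse replicate 1 and 215 in mouse replicate 2. Levels below are always given in that order, as CPM, the UMIs of a gene summed over the cells of a class and scaled to 1000000 UMIs of that class. The cells were set against 2825 progenitors (at least 1 UMI of SOX2, a progenitor factor, and no UMI of NEUROG2 or DLL3) and, as a later stage, against 373 neurofilament neurons (at least 3 UMIs of NEFM and none of SOX2, NEUROG2 or DLL3).

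All cells came from pluripotent stem cells differentiated to motor neurons in vitro as embryoid bodies, which are floating aggregates. The study compared the pace of motor neuron production between human and mouse, and sampled cultures every 24 h (mouse) or 48 h (human) without a day recorded for a cell in the files used here. Replicate 1 of both species was 1 mixed sample of the human induced pluripotent line NCRM1 and C57BL/6 mouse embryonic stem cells, deposited as a human and a mouse part; human replicate 2 was the line RUES1, labelled as an induced pluripotent line, and mouse replicate 2 was again C57BL/6 embryonic stem cells. Before differentiation every line had received a lentivirus with GFP under the CAGGS promoter and a short barcode, and GFP-positive cells were sorted after papain and DNase I, so cells without GFP were not sampled. Each human line stands for 1 replicate, the spread between human replicates therefore also holds a line difference, and nothing in the labels states that the mouse replicates came from separate cultures.

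In the developing spinal cord, progenitors are held in division by Notch signalling: Delta and Jagged ligands on one cell activate Notch receptors on its neighbour, and the receptors turn on HES repressors that block proneural genes. A cell in which proneural factors such as NEUROG2 win out raises its own Delta ligands, stops dividing and switches on neuronal genes. In the motor neuron domain this takes place under OLIG2, which marks the progenitors, and is followed by the motor neuron factors ISL1, LHX3 and MNX1.

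The neurogenic cells held 3393934, 4801357, 3649114 and 5871721 UMIs. Their median cell held 11158, 19503, 15080 and 23403 UMIs, and the median progenitor 12383, 16078.5, 22263 and 36062. The 60 barcodes that both parts of the mixed sample shared were dropped. Neurofilament neurons numbered 113, 103, 16 and 141, so mouse replicate 1 rests on 16 cells there. Human replicate 2 stood apart by mitochondrial content, with a median of 5.77% in its neurogenic cells against 3.48%, 2.26% and 1.32% in the others. Its progenitors also held the most RNA of mesenchyme markers, a summed 1040.5 CPM over 9 genes against 43.3, 3.97 and 40.0 CPM. Tests were edgeR quasi-likelihood tests on summed counts with the library part as a block, adjusted over 11223 genes; the genes of the rule and the markers HES6, GADD45G and NEUROD4 are given as levels without a test. The value after ± beside a log2 change is its standard error.

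Markers of such cells were high in all 4 parts. HES6, a helix-loop-helix factor that promotes neurogenesis, stood at 2050.4, 1596, 416 and 537 CPM in neurogenic cells, 235, 189, 34.8 and 33.1 CPM in progenitors and 231, 226, 42 and 102 CPM in neurofilament neurons. GADD45G, a growth arrest gene of newly committed cells, was at 481, 239.5, 672 and 527 CPM, against 13.9, 15.9, 26.4 and 13 CPM in progenitors and 58.3, 83.4, 63 and 34 CPM in the neurons. For NEUROD4, a bHLH factor downstream of neurogenins, the levels were 177, 253, 112 and 142 CPM, 4.4, 6.15, 3.39 and 0.451 CPM and 19.8, 41.2, 0 and 0.667 CPM. All 3 peaked in the neurogenic cells of each part, and within a species the lowest neurogenic value lay above the highest value of the other classes. NEUROG2 itself was at 423, 263, 360.1 and 285 CPM and DLL3 at 953, 519.6, 265 and 214 CPM. The progenitor factor SOX2 had not fallen away: it stood at 305, 403, 138 and 129 CPM, against 354, 381, 186 and 135 CPM in progenitors, which were chosen for it.

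Levels of HES6 just inside and just outside each limit of the rule, and of GADD45G and NEUROD4 at the NEUROG2 limit, were as follows. In human replicate 1 HES6 was at 1577 CPM in the 67 cells with exactly 2 NEUROG2 UMIs and 1021 CPM in the 101 cells with 1. In the other parts HES6 was at 1159, 457 and 426 CPM with 2 and 765, 321 and 317 CPM with 1. GADD45G was at 253, 83.7, 580 and 312 CPM with 2 and 124, 125, 569 and 455 CPM with 1. It was thus higher outside the limit in both replicate 2 parts. NEUROD4 was at 151, 151, 75.1 and 85.7 CPM with 2 and 59.1, 139, 96.3 and 86.3 CPM with 1. It was not higher inside the limit in either mouse part. With exactly 1 DLL3 UMI, HES6 in human replicate 1 was at 996 CPM, and with none at 793 CPM. In human replicate 2 the DLL3 values were 519 and 536 CPM, the other way round, and in mouse replicate 2 they were 278 and 89.6 CPM. With 2 NEFM UMIs, just outside the rule, 6, 13, 10 and 20 cells held 2304, 1582, 431 and 542 CPM of HES6.

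Against progenitors, 11% of genes were called: 654 were higher (5.83%) and 580 lower (5.17%) in the neurogenic cells of both species, and the median log2 change of all genes was -0.04. Mouse replicate 2 carried much of that count: without it 288 genes were higher and 156 lower, and without mouse replicate 1 327 were lower. Without the library part as a block, 122 were higher and 11 lower. Cells were grouped by genes of the same libraries, so the tests describe cells that differ in those genes, over 4 library parts.

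**Figure D1:**
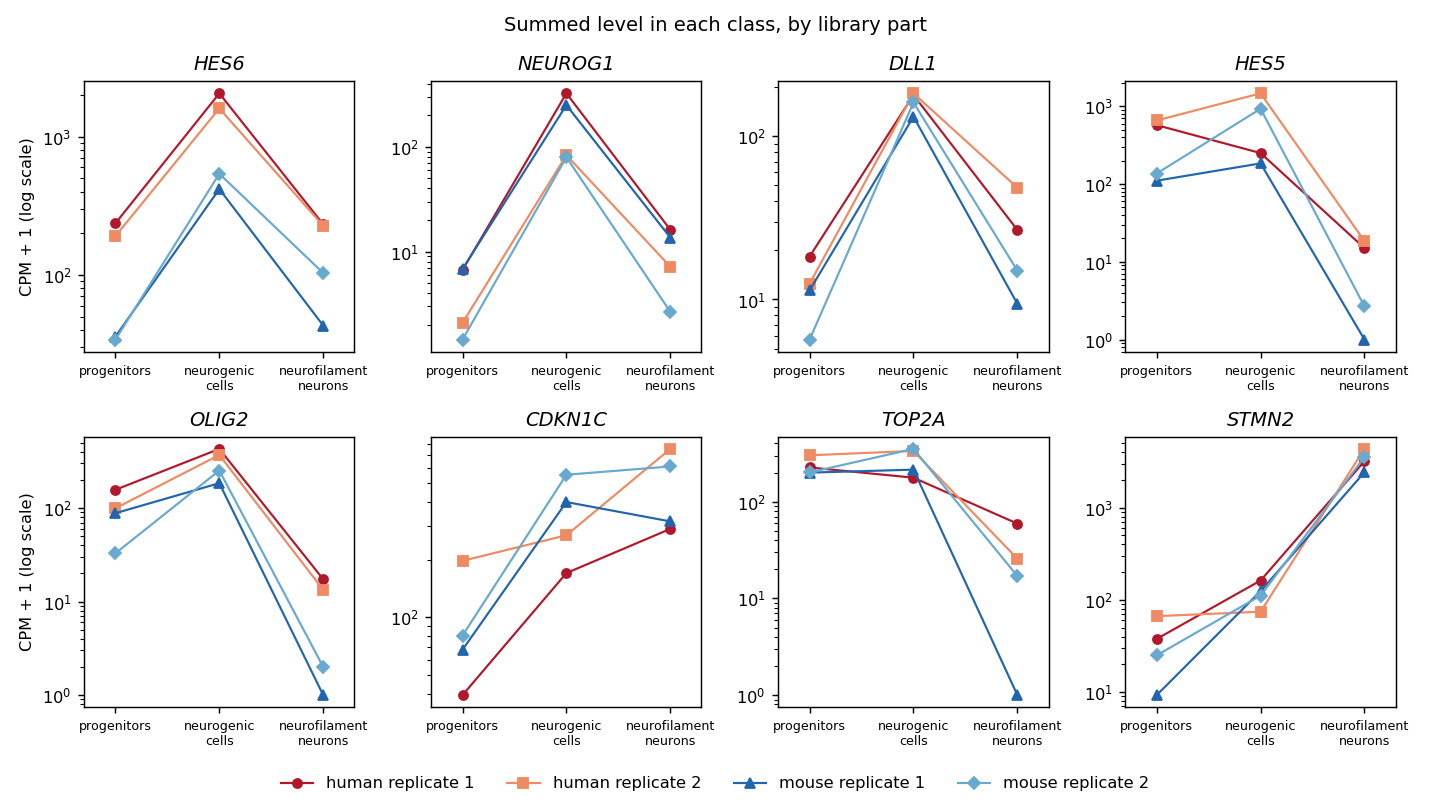
Summed level of 8 genes (CPM + 1, log axis) in progenitors, neurogenic cells and neurofilament neurons, 1 line per library part with no error bars because each point is 1 sum. HES6, NEUROG1, DLL1 and OLIG2 peaked in the neurogenic cells of all 4 parts, TOP2A was far lower in neurons than in both earlier classes, STMN2 rose at the neuron stage, and HES5 in neurogenic cells ran from 184 CPM in mouse replicate 1 to 1468 CPM in human replicate 2.

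Proneural transcription factors rose together. Of 10 tested, 8 were higher and none lower, with a median log2 change of 4.38. NEUROG1, the sister gene of NEUROG2, went from 5.68, 1.09, 5.82 and 0.451 CPM in progenitors to 322, 82.1, 248 and 78.5 CPM in neurogenic cells, a log2 change of 6.04 ± 0.27, adjusted p = 2.5e-08. Both parts of the mixed sample were high and both replicate 2 parts low in neurogenic cells, yet all 4 lay above every progenitor value. NEUROD1, a later bHLH factor of neuronal differentiation, was at 55.4, 20.6, 106 and 113 CPM against 3.97, 0.41, 1.34 and 0.751 (5.49 ± 0.31, adjusted p = 1.3e-07). The helix-loop-helix gene NHLH1 was at 217, 98.5, 43.3 and 23.5 CPM against 11.9, 4.1, 0.512 and 0.325 (5.29 ± 0.17, adjusted p = 2.2e-09), and its relative NHLH2 at 18.6, 10.2, 174 and 111 CPM against 4.83, 0.821, 4.54 and 1.8. INSM1, a zinc finger repressor of neurogenic cells, rose from 0.568, 1.5, 5.82 and 2.58 CPM to 53.6, 60.6, 87.1 and 109.7 CPM (5.26 ± 0.33, adjusted p = 4.0e-07). The E proteins that pair with these factors changed less: TCF4 rose by 0.98, and TCF3 and TCF12 did not pass the test, at 0.03 and 0.29.

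Some of the Notch ligands and modulators were higher in the neurogenic cells. DLL1, the main Delta ligand of the spinal cord, had 17.3, 11.5, 10.4 and 4.68 CPM in progenitors and 178, 182, 131 and 159.9 CPM in neurogenic cells, a log2 change of 4.02 ± 0.26, adjusted p = 4.3e-07. The 4 neurogenic values lay close together, and above all progenitor values. MFNG, a Fringe enzyme that adds sugar to Notch proteins, rose to 68.1, 38.3, 128 and 140.3 CPM from 6.1, 2.6, 23 and 6.21 CPM (3.57 ± 0.29, adjusted p = 4.2e-06). DLL4, another Delta ligand, reached 22.7, 8.75, 18.9 and 9.71 CPM and held 8 UMIs in all human and 6 in all mouse progenitors. MIB1, the ubiquitin ligase that lets Delta ligands signal, rose by 0.88 and NUMBL, a Numb-family adaptor, by 2.48. Of 11 tested genes of this list 5 were higher and none lower, with a median log2 change of 0.09. JAG1 and JAG2, ligands of the Jagged type, were not called over both species, and JAG1 is taken up below.

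The list of Notch receptors and effectors split. NOTCH1 rose by 1.01 (39.2, 46, 104 and 131 CPM against 31.4, 36.8, 41.9 and 31.8), while NOTCH2 fell by 1.32 and NOTCH3 by 0.77 on the log2 scale. The NOTCH3 call was lost without human replicate 1 or either mouse replicate. The effector HES1, a repressor of proneural genes, was at 178, 260.4, 167 and 295 CPM in progenitors and 46.6, 82.5, 77 and 207 CPM in neurogenic cells (-1.28 ± 0.16, adjusted p = 1.9e-04), lower in all 4 parts. RBPJ, the DNA-binding partner of Notch, and its coactivator MAML3 rose by 0.79 and 1.22. In all, 3 of 13 receptor and effector genes were higher and 3 lower, with a median of 0.26.

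HES5, the other main Notch target, varied between libraries. It had 573, 657, 109.6 and 136 CPM in progenitors, 249.6, 1468, 184 and 929.9 CPM in neurogenic cells and 14, 17.5, 0 and 1.67 CPM in neurofilament neurons. Thus it was lower than in progenitors in human replicate 1 and higher in the other 3 parts, most of all in both replicate 2 parts. The change over both species was not called (0.92 ± 0.36, adjusted p = 0.13), whereas against the neurons HES5 was higher by 7.42 ± 0.62, adjusted p = 1.2e-06. With each cell thinned to 7000 UMIs, 34.8, 87.9, 44.3 and 79.9% of neurogenic cells held a HES5 UMI, against 81.1, 52.3, 38.7 and 38% of progenitors and 1.89, 11.8, 0 and 0.787% of neurons. Before thinning, 38.8, 93.9, 58 and 90.7% of neurogenic cells and 86.9, 64.3, 60.4 and 65% of progenitors did. NEUROG1 ran the other way between libraries, in 70, 33.8, 62.2 and 39.3% of the thinned neurogenic cells. The replicate 2 parts also had the deeper neurogenic cells and separate library preparations, and the part of these in the split was not tested.

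Several genes that end the cell cycle were higher, and mitosis genes were still present. CDKN1C, the cyclin-dependent kinase inhibitor p57, had 38.3, 196, 66.8 and 79.3 CPM in progenitors and 169, 267, 398 and 553 CPM in neurogenic cells (1.98 ± 0.21, adjusted p = 3.5e-05), up in all 4 parts. BTG2 and BTG1, antiproliferative genes, rose by 1.92 and 1.09; BTG2 was at 141, 88.9, 285 and 208 CPM. The list of cell cycle exit also held cyclins of the G1 phase, among them CCND1 and CCND3. Of its 15 tested genes 6 were higher and 2 lower (GADD45B and CCND3), with a median of 0.32. Among the 6, the CCND1 call was lost without human replicate 2, without mouse replicate 1 and with the classes set at 7000 UMIs. That of RB1 was lost without mouse replicate 2. The CDKN2C call was lost without human replicate 2 or either mouse replicate, in DESeq2 and in further settings. The 28 tested G2/M genes, which act at mitosis, gave no call at all against progenitors in edgeR or DESeq2 (1 had an unadjusted edgeR p under 0.05), and their median was 0.09. TOP2A was at 176, 334, 213 and 351 CPM against 225, 301, 199 and 199.8, and MKI67 at 58.6, 175, 59.5 and 147 CPM against 92.8, 157, 62.3 and 84.4. Of 27 S-phase genes 7 were lower and 1 higher, E2F1, with a median of -0.46. CCNE1, MCM3 and MCM4 were among the 7, at -0.93, -0.59 and -0.84. All of the 7 calls but that of CCNE1 were lost without human replicate 1, and likewise without mouse replicate 2. Those of MCM3, MCM4, CDC6 and GINS2 were also lost without mouse replicate 1. The E2F1 call was lost without mouse replicate 2. With the classes set at 7000 UMIs a cell, 23 S-phase genes and 2 G2/M genes were lower. Against neurofilament neurons all 28 G2/M and all 27 S-phase genes were higher, with medians of 3.79 and 3.23, where 46.2% of all genes were called (2969 higher and 2215 lower, or 1503 and 871 without mouse replicate 2).

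**Figure D2:**
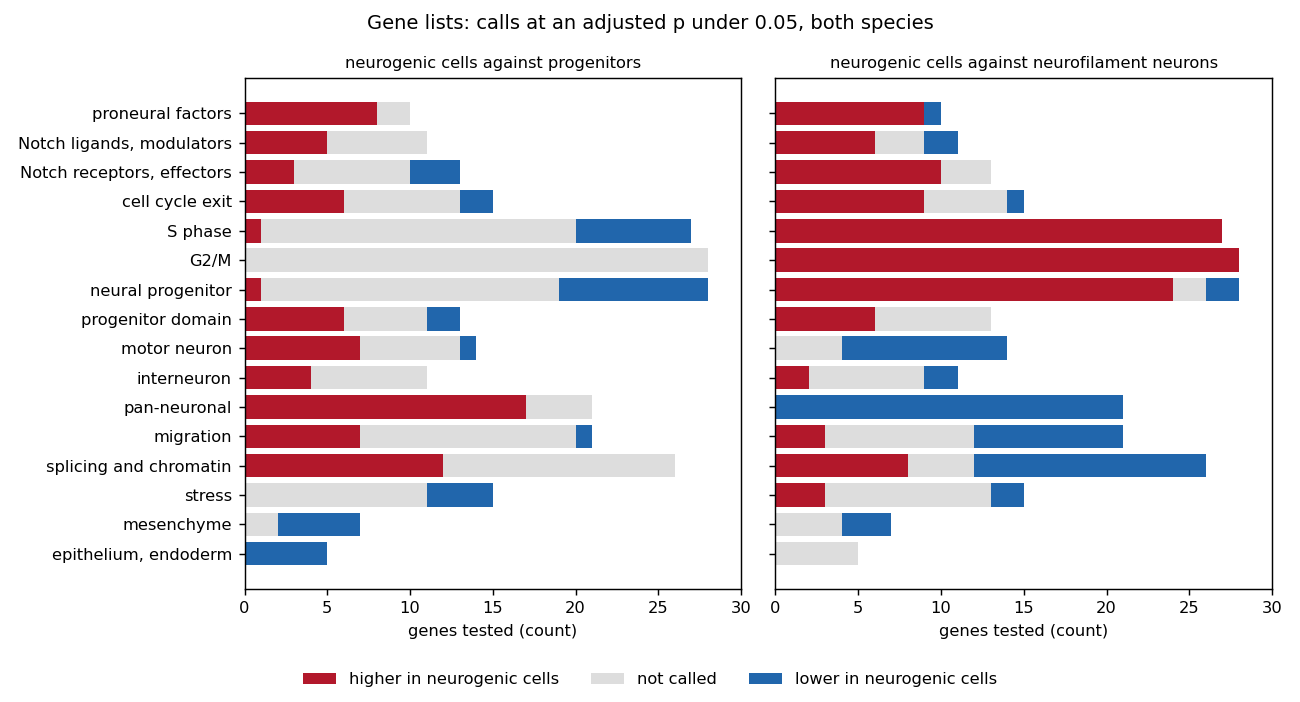
Number of genes of each list called higher (red), called lower (blue) or not called (grey) in neurogenic cells, against progenitors (left) and against neurofilament neurons (right). All G2/M genes were grey on the left and red on the right, and the pan-neuronal list was mostly red on the left (17 of 21) and wholly blue on the right.

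Division transcripts were uneven between cells and libraries. At 7000 UMIs a cell, 24.0% (exact 95% interval 18.8 to 29.8), 47.8% (40.9 to 54.9), 53.7% (46.6 to 60.8) and 78.0% (71.9 to 83.4) of neurogenic cells held 5 or more UMIs over the G2/M list. Of the neurons 53, 51, 16 and 127 cells were deep enough, and their shares were 5.66%, 5.88%, 0 of 16 cells (exact upper bound 20.6%) and 3.94%, lower than in neurogenic cells in all 4 parts. Progenitors stood at 59.2%, 50.6%, 85.7% and 94.7%. Set against the summed levels, which were 1971, 3981, 2591 and 4603 CPM over the list in neurogenic cells and 2652, 3257, 2675 and 3309 CPM in progenitors, these shares ran the other way in both replicate 2 parts, so no order was read between neurogenic cells and progenitors. The median neurogenic cell held 1, 3, 6 and 21.5 G2/M UMIs and the median progenitor 7, 5, 14 and 19. S-phase genes reached the same count in 33.6%, 65.2%, 71.6% and 86.9% of neurogenic cells.

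**Figure D3:**
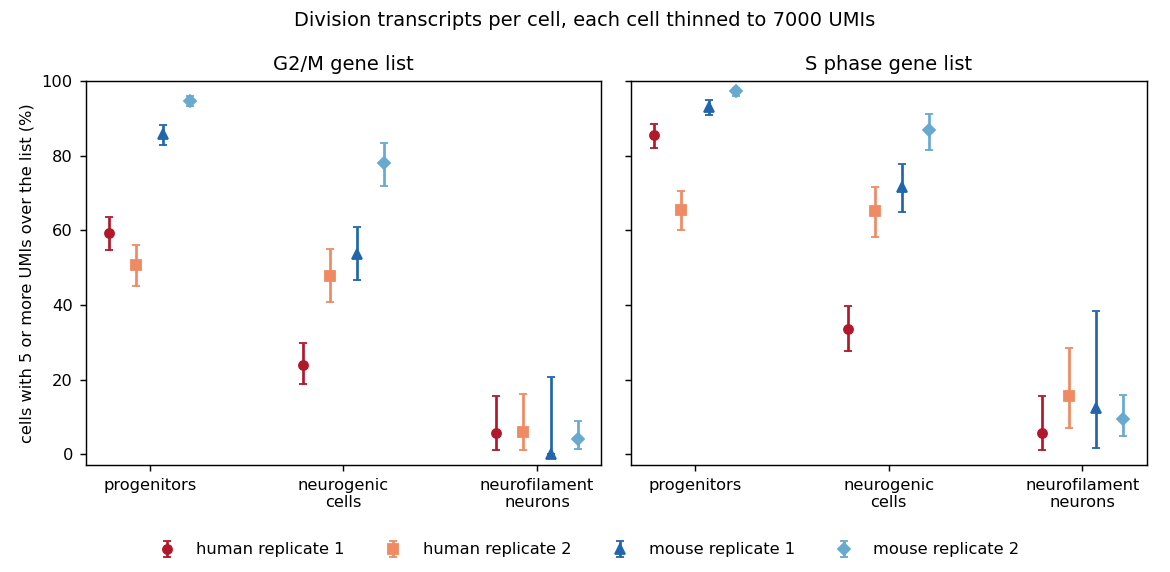
Share of cells with 5 or more UMIs over the G2/M list (left) and the S phase list (right) after thinning each cell to 7000 UMIs, by class and library part; bars are exact 95% intervals and cover counting error only. Neurogenic cells ran from 24.0% to 78.0% for G2/M and neurofilament neurons from 0 to 5.88%.

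Among genes of the progenitor domains, 6 of 13 tested were higher in neurogenic cells and 2 lower. OLIG2, of the motor neuron domain, was at 428, 368, 183 and 251 CPM, against 156, 98.3, 87 and 31.8 CPM in progenitors and 16.3, 12.4, 0 and 1 CPM in neurofilament neurons, a log2 change of 1.87 ± 0.24, adjusted p = 1.9e-04 from progenitors. A UMI of OLIG2 was found in 81.6, 83.6, 45.8 and 50.9% of thinned neurogenic cells and 15.1, 7.84, 0 and 0.787% of the neurons, so the human shares lay above the mouse shares. Progenitors were not chosen by OLIG2. Before thinning, 327, 171, 403 and 295 of the 543, 456, 685 and 1141 progenitors held an OLIG2 UMI and at most 1 NEFM UMI. The part of progenitors without OLIG2 in the OLIG2 change was not tested. OLIG1, its neighbour gene, rose by 1.88 and NKX6-1, a ventral progenitor factor, by 1.18. NKX2-2, which marks the progenitors ventral to motor neurons, was lower at 2.95, 6.25, 1.37 and 1.19 CPM against 3.26, 25.8, 16 and 3 (-1.95 ± 0.39, adjusted p = 0.0071), a call lost without human replicate 2 or mouse replicate 1. FOXA2, a floor plate factor, was at 0, 0.417, 0 and 1.19 CPM, and its lower call was lost without human replicate 2 and in DESeq2. PRDM8, a repressor expressed in several ventral domains, rose by 2.64. The other 2 higher genes were FOXN4, given below with the V2 genes, and the Iroquois factor IRX5, at 2.95, 17.5, 53.2 and 42.4 CPM against 3.41, 4.79, 26.2 and 22.5 (1.06 ± 0.30, adjusted p = 0.041). The IRX5 call was lost in DESeq2, without doublets, at 7000 UMIs and without human replicate 2 or either mouse replicate. In mouse, PRDM12, a factor of the p1 domain, was also higher (8.22 and 8.52 CPM against 1.15 and 1.8), a call lost without either replicate, and DBX1, of the p0 domain, was at 13.2 and 11.4 CPM against 19 and 25.2 and not called.

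Motor neuron factors were already present. LHX3, a LIM factor of motor neurons and V2a interneurons, went from 1.7, 2.19, 1.73 and 1.58 CPM to 97.2, 64.4, 60.3 and 58.4 CPM (5.32 ± 0.48, adjusted p = 1.1e-05), with no overlap. MNX1, the motor neuron homeobox gene, was at 13.6, 30, 19.7 and 28.4 CPM against 0.568, 14.9, 1.92 and 3.41 (2.57 ± 0.32, adjusted p = 1.7e-04), with human replicate 1 overlapping the progenitors of human replicate 2. ONECUT1 and ONECUT2, factors of early motor neurons, rose by 4.24 and 2.97. Of 14 tested motor neuron genes 7 were higher and 1 lower, PHOX2A, which is a factor of cranial motor neurons and was at 0, 0.417, 0.822 and 0.17 CPM; its log2 change of -2.55 turned to 0.12 against OLIG2-positive progenitors and was not called without human replicate 2 or either mouse replicate. Genes of the finished motor neuron were mixed. CHAT, which makes acetylcholine, was at 0, 0, 1.64 and 4.43 CPM. SLC18A3, the vesicular acetylcholine transporter, was among the 7 higher genes, a call lost without human replicate 2. In mouse alone both CHAT and SLC18A3 were called higher than in progenitors. SLC5A7, the choline transporter, was at 0, 0.625, 0 and 0 CPM against 82.8, 92.7, 0 and 27 CPM in neurofilament neurons. Against those neurons 10 of the 14 were lower and none higher.

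Interneuron genes were found as well, of the V2 lineage in both species. VSX1, a homeobox gene of V2 precursors, had 33.3, 20.4, 4.93 and 7.49 CPM in neurogenic cells; progenitors held 3 UMIs in human and 0 in mouse, so the mouse level was at least 121-fold higher, taking 3 counts over all mouse progenitors as the floor. FOXN4, which starts the V2 lineage, was at 6.19, 14.8, 12.9 and 7.49 CPM against 2.27, 3.42, 0.256 and 0.125, and GATA2, a V2b factor, at 6.19, 4.37, 11.2 and 3.58 CPM against 0.568, 0.137, 0.192 and 0.325. All 3 lay higher in neurogenic cells than in progenitors in each part. LHX1, of several interneuron classes, rose by 2.73, a call lost without mouse replicate 2 and in DESeq2. Of 11 tested interneuron genes 4 were higher over both species and none lower; 2 were higher in human alone and 7 in mouse alone. The mouse calls included TAL1, a V2b factor, at 9.32 and 2.55 CPM against 0.256 and 0.2, LHX5 at 3.84 and 2.38 against 0.32 and 0.15, PAX2 at 2.47 and 7.66 against 0.704 and 2.15 and TLX3 at 0.274 and 2.55 against 0.064 and 0.25. The last 3 mark other interneuron classes, and human neurogenic cells held at most 0.21 CPM of each of the 4. All 4 calls were lost without mouse replicate 1, and those of TAL1, LHX5 and PAX2 without mouse replicate 2. EVX1, LHX9 and SIM1 were at or below 0.34 CPM in neurogenic cells of every part.

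The neuronal programme was on at a low level. Of 21 pan-neuronal genes 17 were higher than in progenitors, with a median of 1.5, and all 21 were lower than in neurofilament neurons, with a median of -2.97. TAGLN3, an actin-binding protein of neurons, had 38.9, 41.3, 21.2 and 17 CPM in progenitors, 373, 319, 209 and 262 CPM in neurogenic cells and 385, 646, 584 and 766 CPM in the neurons. ELAVL3, a neuronal RNA-binding protein, was at 148, 128, 269 and 221 CPM against 264, 392, 551 and 516. STMN2, a microtubule regulator of growing axons, was at 161, 73.3, 123 and 110.0 CPM against 3192, 4334, 2421 and 3546 CPM, lower by 4.48 on the log2 scale. MAPT, the tau gene, GAP43, a growth cone protein, and STMN4 were not called against progenitors, at -0.14, -0.68 and -0.28. TUBB3 was left out because human replicate 1 lists it at 0.

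Some splicing and chromatin regulators of neurons changed at this step. SRRM4, which drives neural microexon splicing, had 7.52, 31.9, 2.56 and 1.48 CPM in progenitors, 148, 364, 83.9 and 132 CPM in neurogenic cells and 51.3, 171, 50.4 and 104 CPM in neurons. It was higher than in progenitors by 4.85 ± 0.24, adjusted p = 3.5e-08 and higher than in the neurons by 1.13 ± 0.22, adjusted p = 9.3e-04. CELF3, an RNA-binding splicing factor, and the MyT zinc finger genes ST18 and MYT1 rose by 3.99, 4.73 and 3.60. RCOR2, a corepressor of the REST complex, rose by 1.58, and REST itself, which silences neuronal genes and is on the progenitor list, fell by 0.65, a call lost without human replicate 1 or either mouse replicate. PTBP1, the splicing repressor of non-neuronal cells, was not called at -0.38. Among 26 genes of this list 12 were higher and none lower, with a median of 0.79. The chromatin genes ACTL6A, ACTL6B, SS18, SS18L1, DPF1, DPF3 and PHF10 of the list were not called. Of the migration list 7 of 21 were higher, among them EBF2, an early neuronal factor, at 25.9, 18.1, 53.4 and 57.1 CPM against 0.142, 0.41, 0.512 and 0.551 (6.45 ± 0.30, adjusted p = 2.5e-08).

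Higher than in both progenitors and neurofilament neurons were 167 genes (1.49% of those tested). Ranked by the smaller of the changes, the first 15 included NEUROG1, HES2, DLL4, GATA2, BTBD17, VSX1, FOXN4, RGS16, SSTR2, DLL1, MFNG, SLC35D2, EBF2 and GLIS1. RGS16, which shuts off G protein signals, was at 679, 741, 46.6 and 82.1 CPM, against 44.4, 46.2, 1.02 and 1.33 CPM before and 314, 195, 16.8 and 1.33 CPM after. SSTR2, a somatostatin receptor, was at 26.8, 31.7, 47.4 and 32.2 CPM against 0.71, 4.51, 0.576 and 0.476 and 0, 16.5, 0 and 2 CPM. HES2, a HES family gene, was at 8.25, 7.5, 17 and 3.92 CPM, against 1.14, 0.41, 0.064 and 0.025 CPM in progenitors. GLIS1 was called from its human values, 10 and 3.96 CPM against 0.284 and 0.137 CPM, and its mouse values did not exceed those of progenitors in replicate 1. DLL4, HES2, VSX1 and SLC35D2 missed the threshold against the neurons without mouse replicate 2, as did GATA2 without that part or either human replicate. GLIS1 missed it there without any 1 of the 4 parts and in DESeq2, and its call against progenitors was lost without human replicate 1 or either mouse replicate.

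Progenitor genes fell unevenly. ID3, an inhibitor of bHLH factors, went from 263, 516, 372 and 842 CPM to 34.8, 172, 56.5 and 161 CPM (-2.35 ± 0.20, adjusted p = 8.1e-06), lower in every part. YAP1, a growth coactivator, SLC1A3, a radial glia glutamate transporter, and HMGA2, an early progenitor chromatin protein, fell by 1.04, 1.34 and 0.84. Of 28 progenitor genes 9 were lower and 1 higher, POU3F2, with a median of -0.24. PAX6, SOX3, NES and VIM were not called, at 0.38, 0.01, 0.30 and 0.39, and against the neurons 24 of the 28 were higher.

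Genes of other tissues were among those that fell most. Keratin genes KRT8 and KRT18, of simple epithelia, were at 35.1, 125, 2.05 and 24.5 and 48.3, 106, 6.46 and 53.7 CPM in progenitors and 14.4, 8.33, 0.274 and 0.681 and 17.7, 16, 0.274 and 2.72 CPM in neurogenic cells. COL2A1, a cartilage and notochord collagen, was at 48.5, 529.8, 16.1 and 37.9 CPM against 8.54, 29, 1.64 and 9.03. All 5 tested epithelium and endoderm markers and 5 of 7 mesenchyme markers were lower. Over the whole lists, epithelium and endoderm markers summed to 101, 303, 18.1 and 151 CPM in progenitors and 36.8, 32.9, 2.19 and 10.6 CPM in neurogenic cells; mesenchyme markers to 43.3, 1040.5, 3.97 and 40.0 against 8.25, 51.4, 3.29 and 2.04 CPM. The part of these other cells in the decrease was tested only by changing the reference. Against progenitors with at least 1 OLIG2 UMI and at most 1 NEFM UMI, a reference added after the data had been seen (327, 171, 403 and 295 cells), KRT8 changed by -1.70 and KRT18 by -1.48 instead of -3.74 and -3.21, and the KRT8 call with the first reference was lost without mouse replicate 2. COL2A1 changed by -1.96 there, APOE by -1.19 instead of -2.46 and PTN by -1.32 instead of -2.65, all still called. COL1A1, COL1A2, COL3A1, DCN and IFI30 were no longer called (IFI30 was also lost without human replicate 1), whereas ID3 and HES1 kept -2.26 and -1.11. For NEUROG1 that reference gave 5.69 and for EBF2 6.88. Pluripotency markers POU5F1 and NANOG were at or below 0.88 CPM in neurogenic cells of every part.

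Human and mouse neurogenic cells were then set against each other by their changes from progenitors, since levels of different genomes are not comparable gene by gene. In human 4.31% of genes were called, 300 higher (2.67%) and 184 lower (1.64%), and in mouse 10.2%, 656 higher (5.85%) and 485 lower (4.32%). These counts do not measure a difference between species; the test of the difference itself called 1.68% of genes, 64 above 0 (0.57%) and 124 below 0 (1.1%), where above 0 means a more positive change in human. Its median over all genes was 0.02. Without mouse replicate 2 the counts were 7 and 18, without human replicate 2 49 were below 0, without mouse replicate 1 35 were above 0, and without the block they were 0 and 0 (140 and 245 at an unadjusted p under 0.05). Of 10 proneural genes 2 were below 0, NHLH1 and NHLH2 (both lost without human replicate 1 or mouse replicate 2, and NHLH1 without mouse replicate 1), and NEUROG1 differed by -0.24 ± 0.53, adjusted p = 0.94. The mouse counts fell to 162 and 34 without mouse replicate 2, to 376 and 161 without mouse replicate 1, and 1282 were lower without human replicate 2; without human replicate 1, 159 were higher in human.

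Several motor neuron and neuronal genes changed more in mouse. The progenitors of the comparison included 9, 45, 6 and 12 cells with 3 or more NEFM UMIs, of 543, 456, 685 and 1141. The part of these cells in the differences was not tested on its own. ISL1, the first LIM factor of motor neurons, stood in neurogenic cells at 26.2, 18.1, 78.9 and 179 CPM, against 2.7, 5.06, 1.09 and 1.6 CPM in the progenitors. Its log2 change was 2.67 ± 0.57 in human and 6.56 ± 0.55 in mouse, a difference of -3.89 ± 0.81, adjusted p = 0.031. EBF1, a helix-loop-helix factor of early neurons, was at 7.66, 5.42, 128 and 152 CPM against 1.28, 6.56, 5.38 and 3.63 (-4.19 ± 0.59, adjusted p = 0.0035). LHX4, a LIM factor of motor neurons, and SLC18A3, the vesicular acetylcholine transporter, differed by -2.93 and -3.75. DCX, INA and RTN1, all genes of young neurons, differed by -2.05, -2.05 and -1.90. With the OLIG2-positive reference the calls of ISL1, EBF1, LHX4, DCX and RTN1 were lost, as they were without mouse replicate 2; those of EBF1, LHX4, DCX, RTN1 and SLC18A3 were also lost without human replicate 2, of ISL1 and DCX without mouse replicate 1 and of RTN1 without human replicate 1. In human neurogenic cells a UMI of ISL1 was found in 12% and 10.1% of thinned cells and in mouse in 21.4% and 38.3%, against 1.22, 1.17, 1.49 and 0.733% of progenitors. In all, 4 of 14 motor neuron genes and 4 of 21 pan-neuronal genes were below 0 and none above.

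Cell cycle genes differed too. CCND1, a cyclin of the G1 phase, was at 606 and 399.9 CPM in human progenitors and 336 and 466 CPM in neurogenic cells, and in mouse at 61.9 and 150.3 and 258 and 415 CPM. The human parts moved in opposite directions and both mouse parts rose, with changes of -0.28 ± 0.23 and 1.75 ± 0.23 and a difference of -2.03 ± 0.32, adjusted p = 0.0065. BTG2, RB1, the retinoblastoma gene, and CDKN1A, the inhibitor p21, differed by -1.35, -1.71 and -1.31. JAG1 was at 10.3, 12.9, 5.75 and 24.9 CPM against 21.6, 32.3, 3.84 and 12.5, lower in both human and higher in both mouse parts, a difference of -2.02 ± 0.39, adjusted p = 0.019. SOX9, a progenitor factor, differed by -1.79 ± 0.29, adjusted p = 0.0069. Each of these 6 calls was lost without mouse replicate 2, all but CCND1 also without human replicate 2, CCND1 and CDKN1A without mouse replicate 1, and CDKN1A without human replicate 1. Against OLIG2-positive progenitors those of RB1 and SOX9 were lost, and in DESeq2 those of JAG1 and RB1. With at most 5% mitochondrial UMIs those of CCND1, CDKN1A, JAG1 and RB1 were lost, and with classes set at 7000 UMIs those of BTG2, CDKN1A, JAG1 and SOX9.

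On the other side, FABP7, a fatty acid binding protein of radial glia, was at 897 and 565 CPM in human progenitors and 1667 and 1051 CPM in neurogenic cells, and in mouse at 95 and 193 and 26.6 and 107 CPM. It thus rose in both human parts and fell in both mouse parts, with changes of 0.93 ± 0.22 and -1.3 ± 0.24 and a difference of 2.22 ± 0.33, adjusted p = 0.0045. Taken alone, the human change was no longer called in DESeq2, against OLIG2-positive progenitors or without either human replicate. The mouse change alone was no longer called without mouse replicate 1, and neither was called without the block. LIN28A, an RNA-binding protein of early development, was at 31.5, 53.9, 24.4 and 17.9 CPM against 44.4, 29, 67.2 and 69.1 (1.99 ± 0.42, adjusted p = 0.030), lower in both mouse parts and in human replicate 1, a call lost without human replicate 2 or either mouse replicate. SHD, a Src homology adaptor, had the largest such difference by the rule for named genes, at 34.5, 25.8, 26 and 31 CPM against 1.14, 2.05, 16.1 and 14.3 (3.35 ± 0.47, adjusted p = 0.0035). SH3BGRL3, a small thioredoxin-fold protein, went from 148 and 190.0 to 683 and 502 CPM in human and from 112 and 121 to 91 and 89.9 CPM in mouse (2.20 ± 0.24, adjusted p = 8.7e-04). PPP1R14A, an inhibitor of myosin phosphatase, rose in all 4 parts but more in mouse, to 188, 146, 319.5 and 406 CPM from 49.1, 31.7, 14.1 and 10.2 (-2.83 ± 0.29, adjusted p = 5.5e-04).

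**Figure D4:**
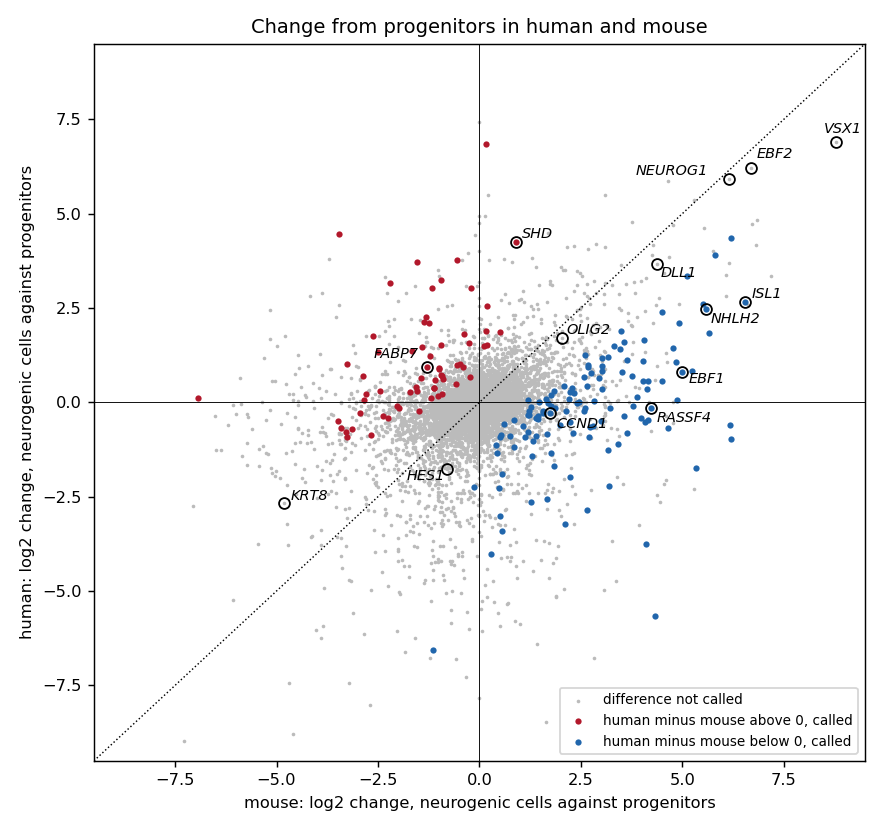
Log2 change from progenitors to neurogenic cells in mouse (x axis) and human (y axis) for 11222 genes, with 1 gene outside the range; the dotted line marks equal change. Genes with a called difference are red (above 0 in human minus mouse, 64) or blue (below 0, 124); NEUROG1, EBF2 and DLL1 lie near the line, and ISL1, EBF1 and CCND1 below it.

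Neurogenic cells also differed among themselves. At 7000 UMIs a cell, SOX2 was found in 76.8, 84.5, 52.2 and 47.2% of them, so 192, 175, 105 and 101 cells with SOX2 could be set against 58, 32, 96 and 113 without. The cells with SOX2 had the higher median depth in each part, 11810, 21252, 16423 and 27129 UMIs against 11382.5, 16673.5, 14317.5 and 21410.0. Of 9604 genes tested, 1.95% were called: 95 were higher (0.989%) and 92 lower (0.958%) in the cells with SOX2; with another scaling, DESeq2's size factors in edgeR, 75 were higher and 121 lower. These counts rest on mouse replicate 2, without which 0 were higher and 5 lower (429 and 306 at an unadjusted p under 0.05), and they were 278 and 170 without human replicate 1, 152 were higher without human replicate 2, and DESeq2 called 24 and 45. Without the block they were 0 and 0 (95 and 120 at an unadjusted p under 0.05).

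STMN2 was at 387, 223, 219 and 194 CPM in cells without SOX2 and 76.4, 49, 34.1 and 33.9 CPM in those with it (-2.39 ± 0.09, adjusted p = 7.3e-10), with no overlap, and of the genes named here as differing it was the one still called without mouse replicate 2. Further neuronal and motor neuron genes were higher without SOX2: 14 of 21 pan-neuronal genes, and 5 of 8 motor neuron genes. ISL1 was at 45.8, 44, 111 and 274 CPM without and 19, 13.2, 54 and 93.6 CPM with SOX2 (-1.39 ± 0.16, adjusted p = 4.2e-04). MNX1 and NHLH1 differed by -1.76 and -1.25, and INA, a neuronal intermediate filament, by -1.53. On the other side 17 of 28 G2/M genes were higher with SOX2, with a median of 0.64 against 0.04 for all genes. By share of thinned cells with 5 or more G2/M UMIs, human replicate 1 showed no such difference. The shares were 24.0, 50.3, 60 and 92.1% with SOX2 and 24.1, 34.4, 46.9 and 65.5% without. With 3 or more UMIs human replicate 1 went the other way, at 26.6% with and 34.5% without SOX2, and the other parts kept their direction. TOP2A was at 194, 355, 264 and 407 CPM with and 149.8, 188, 149.7 and 289 CPM without SOX2 (0.68 ± 0.09, adjusted p = 6.4e-04), and PLK1, a mitotic kinase, differed by 0.92. PAX6 and YAP1, progenitor genes, differed by 0.76 and 0.97. HES5 was higher with SOX2 by 0.44, in 3 of 4 parts. OLIG2, NEUROG1 and DLL1 were not called, at -0.04, 0.06 and 0.20 with standard errors of 0.07, 0.11 and 0.08.

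**Figure D5:**
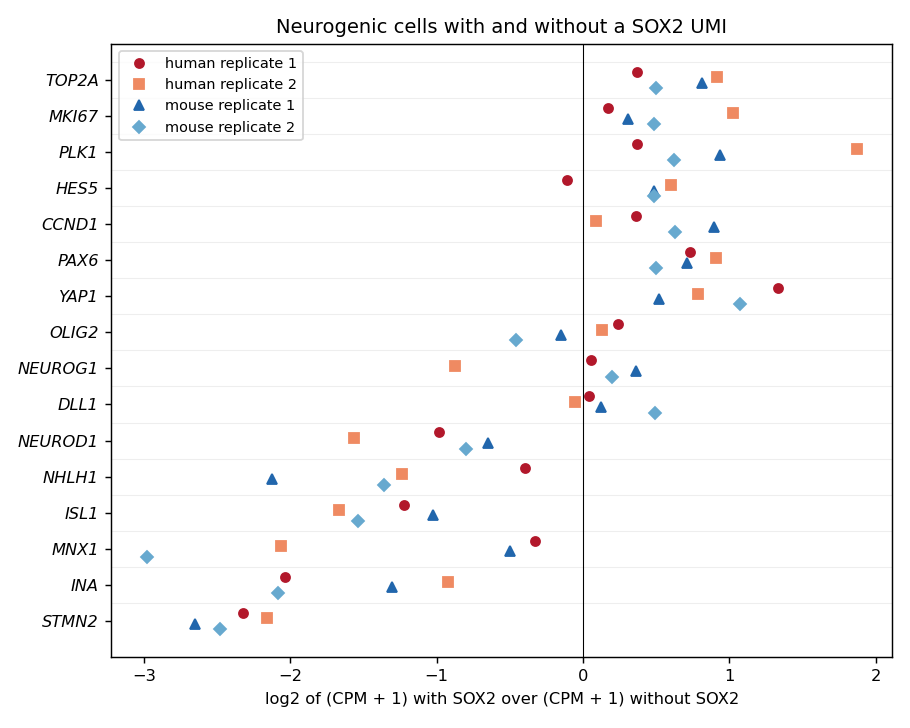
Ratio of levels in neurogenic cells with SOX2 to those without (log2 of CPM + 1 over CPM + 1) for 16 genes, 1 point per library part. All 4 points lie above 0 for TOP2A, MKI67, PLK1, CCND1, PAX6 and YAP1 and below 0 for NEUROD1, NHLH1, ISL1, MNX1, INA and STMN2.

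The share of cells that were neurogenic was 11.8% (exact 95% interval 10.6 to 13.2) and 11.6% (10.2 to 13.1) in human and 11.7% (10.2 to 13.2) and 7.95% (6.95 to 9.03) in mouse. Means were 11.7% ± 0.17 (SD, n = 2) and 9.81% ± 2.64 (SD, n = 2), a difference of 1.90 percentage points (exact two-sided permutation p = 0.67; 2 against 2 cannot go below 0.33). Mouse replicate 2 was lower than the other 3, which lay within each other's intervals; without it the difference was 0.039 points. With at most 5% mitochondrial UMIs the difference turned to -0.57 points, and human replicate 2 then kept 62 of its 212 neurogenic cells. The share also depends on depth, since 2 UMIs of NEUROG2 are reached more easily in a deep cell: at 7000 UMIs for every cell it was 8.83%, 6.72%, 6.46% and 3.92%.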

How the data were processed

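The deposited files hold counts of UMIs per gene and cell, 1 matrix per library part, made by the authors with Cell Ranger 3.1.0 on hg38 and mm10 per the submitters' processing notes. Kept cells had 1000 or more UMIs, 500 or more genes and no more than 10% of UMIs from mitochondrial genes; 2407, 2044, 1881 and 2783 deposited cells left 2332, 1829, 1816 and 2706. Scrublet doublets were left in the main values and removed in an alternative (6 of 915 neurogenic cells). Human and mouse genes were joined by upper-case symbol (15472 shared); 42 symbols at 0 in 1 part with 100 or more UMIs in the other part of the species, and 590 at 0 everywhere, were left out.

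UMIs were summed per class and part and tested with edgeR 4.0.16 in R 4.3.3 (TMM, filterByExpr, quasi-likelihood, Benjamini-Hochberg at 0.05), with the part as a block and 4 residual degrees of freedom. Classes of a part come from the same library, and their deviations from the species mean correlated (r = 0.67 in human and 0.72 in mouse between progenitors and neurogenic cells, across genes). On simulated data 95 of 100 genes with a log2 change of 1 and 100 of 100 with 2 were recovered for both species (10895 genes, 6 false calls), and 26 and 90 of 100 for the species difference (10908 genes, 2 false calls). In the simulation every gene had the same dispersion (0.023), and the changed genes were drawn only from genes above a count limit. Recovery in the real data may therefore be lower and false calls more frequent. Shares of cells with a UMI were read after thinning to 7000 UMIs; 26, 5, 11 and 1 neurogenic cells were too shallow. Intervals are exact Clopper-Pearson at 95% and cover counting error only. P-values of edgeR rest on how far class changes differ between the parts of a species, pooled over species and classes. That spread may be technical for mouse. The tests also counted the human and mouse parts of the 1 mixed sample as separate parts. Neither edgeR nor the permutation test took that shared sample into account.

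The members and the gene lists were chosen with earlier results of these data known. Named genes were those of the lists and, per comparison, the 12 largest called changes in each direction (8 for the species difference) with the same direction in every part and at least 20 CPM, or the 15 with the largest smaller change for genes above both other classes. Whether the 20 CPM were to be read in the compared classes alone was settled after values had been seen. Alternatives were DESeq2 1.42.0, its size factors in edgeR, no filter on low counts, no block, neurogenic cells and progenitors alone, classes set at 7000 UMIs, no doublets, at most 5% mitochondrial UMIs, at least 3 NEUROG2 UMIs, SOX2 read on all UMIs, each part left out and, added after the data had been seen, progenitors with OLIG2 and little NEFM.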

Additional observations from a re-analysis of the deposited data

Results flagged for a closer look

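The change from progenitors to neurogenic cells differed between human and mouse, by the test of the difference itself, in 64 genes above 0 and 124 below 0 (human minus mouse, log2). Values below are from that edgeR test, over 2 parts of each species. None of the genes of this section was called without the library part as a block. Of the 40 genes given here, 34 lost the call in at least 1 fit that left out a library part: 30 without mouse replicate 2, 25 without human replicate 2, 9 without human replicate 1 and 9 without mouse replicate 1. The other 6, FABP7, INA, PPP1R14A, RASSF4, SH3BGRL3 and SHD, were called in all 4 such fits. Against OLIG2-positive progenitors the calls of DCX, EBF1, FOXD1, FOXN4, GAP43, HSPB1, ISL1, LHX4, RB1, RTN1 and SOX9 were lost.

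Among neuronal and motor neuron genes with a more positive mouse change, ISL1 differed by -3.89, LHX4 by -2.93, ONECUT1 by -1.76, SLC18A3 by -3.75, DCX by -2.05, INA by -2.05, RTN1 by -1.90 and GAP43 by -2.46. The transcription factors NHLH1, NHLH2, EBF1, SCRT2 and FOXN4 differed by -1.84, -3.13, -4.19, -3.77 and -3.81. Splicing regulators SRRM3, SRRM4 and NOVA2 differed by -2.40, -1.92 and -2.20, and NOVA1 by 1.73 the other way. Of 14 alternatives, NOVA1 lost the call in 10, SRRM4 in 8, and SRRM3 and NOVA2 in 6 each. For cell cycle genes the differences were -2.03 for CCND1, -1.35 for BTG2, -1.31 for CDKN1A and -1.71 for RB1. JAG1 differed by -2.02, SOX9 by -1.79 and PLXNA2, a semaphorin receptor, by -1.80.

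Genes outside the lists with a more positive mouse change were RASSF4 (-4.38), BTBD17 (-2.91), PPP1R14A (-2.83), FOXD1 (-2.75), TCF15 (-2.74), RHBDL3 (-2.70) and SLIT2, an axon guidance ligand (-2.72). Those with a more positive human change were SHD (3.35), TNFRSF19 (3.04), FNDC5 (2.88), ACTA2, smooth muscle actin (2.72), RHOU (2.36), HSPB1, a small heat shock protein (2.34), SH3BGRL3 (2.20), and from the progenitor list FABP7 (2.22) and LIN28A (1.99). Of these, ACTA2 and HSPB1 were lower than in progenitors in every part and fell less in human. Without mouse replicate 2, 7 genes in all were called above 0 and 18 below 0.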

How the results depend on the processing

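Of 3863 values of 304 gene results under the alternatives, 3239 kept direction and side of the threshold, 619 lost the call, 3 gained one and 2 turned: PHOX2A to 0.12 against OLIG2-positive progenitors and CCND1 in human to 0.29 without human replicate 1 (-0.89 without human replicate 2). Without the replicate block, higher and lower counts were 122 and 11 over both species, 21 and 1 in human, 101 and 3 in mouse, 1358 and 1189 against neurons, 0 and 0 for the species difference (140 and 245 at an unadjusted p under 0.05) and 0 and 0 for SOX2 (95 and 120). With classes set at 7000 UMIs they were 1061 and 1303 over both species, 558 and 509 in human, 999 and 1030 in mouse, and 123 above 0 for the difference. DESeq2 called 95 lower in human and 24 and 45 for SOX2. Without a filter on low counts 341 were lower in human, 137 and 250 differed between species and 312 and 171 by SOX2. At most 5% mitochondrial UMIs gave 199 and 105 in human, 42 and 69 for the difference, and a share difference of -0.567 points. OLIG2-positive progenitors gave 108 lower in human, and SOX2 read on all UMIs 686 and 324. Leaving out 1 part in turn gave 288 to 505 higher and 156 to 802 lower over both species, 159 to 288 and 138 to 208 in human, 162 to 805 and 34 to 1282 in mouse, 7 to 68 and 18 to 173 for the difference, 1503 to 2651 and 871 to 2121 against neurons, and 0 to 278 and 5 to 170 for SOX2. The share difference ran from 0.0392 to 3.77 points, and the G2/M share minus that of neurons from 38.0 to 56.6 and minus that of progenitors from -27.9 to -17.1 points. With 2 parts per species, a log2 change of 1 in the species difference was mostly missed on simulated data.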

Other observations

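Immediate early and stress genes, which respond to handling and to nutrient or protein stress, gave 4 lower and 0 higher calls of 15 in neurogenic cells against progenitors, with a median log2 change of -0.56. FOSB, an immediate early factor, was at 15, 3.33, 7.95 and 0.341 CPM against 34.1, 21.2, 15.2 and 2.78 CPM in progenitors (-1.54 ± 0.36, adjusted p = 0.014). SESN2, TRIB3 and ATF3, genes of the stress response, fell by 0.59, 0.98 and 0.66, each lower in all 4 parts. These 3 calls were lost without human replicate 1 or either mouse replicate, that of TRIB3 also in DESeq2 and that of ATF3 against OLIG2-positive progenitors. In human alone and in mouse alone none of the 15 stress genes was called by edgeR or DESeq2 (9 in human and 5 in mouse had an unadjusted edgeR p under 0.05).

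CHRNA3, a nicotinic acetylcholine receptor subunit, was at 59.5, 31, 47.4 and 20.4 CPM in neurogenic cells against 2.7, 2.19, 1.73 and 1.3 CPM in progenitors (4.23 ± 0.29, adjusted p = 8.0e-07), and at 29.2, 12.4, 143 and 19 CPM in neurofilament neurons. WLS, which carries Wnt ligands to the cell surface, fell from 10.9, 73.8, 33.9 and 70.5 CPM to 5.01, 11, 11.2 and 15.7 CPM (-2.03 ± 0.22, adjusted p = 5.2e-05), lower in all 4 parts.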
